A study of Mus musculus with 3 samples.

Results

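The DUSP and Sprouty MAP kinase feedback genes are 10 genes taken by name from the 31053 genes of the count tables: the dual specificity phosphatases Dusp1, Dusp2, Dusp4, Dusp5, Dusp6 and Dusp10, the Sprouty genes Spry1 and Spry2, and the Sprouty-related genes Spred1 and Spred2. They were followed in single-cell RNA libraries of 7AAD- CD3+ CD4+ cells, sorted after enrichment of naive CD4+ T cells from the spleens of C57BL/6 mice, which the methods give as males of 5 to 10 weeks. There were 3 libraries, 1 per condition. The unstimulated (resting) WT library held Ift20 f/f cells in DPBS at 0 h, the stimulated WT library held Ift20 f/f cells after 24 h with antibodies to CD3 and CD28 (each at 1 μg/mL), and the stimulated IFT20-KO library held Ift20 f/f CD4 cre cells treated in the same way. All 3 groups carry the floxed Ift20 allele, and in the IFT20-KO mice Cre under the Cd4 promoter removes exons of Ift20 from T cells, so the deletion already took place during T cell development. Neither an unstimulated IFT20-KO library nor Cre-carrying mice without the floxed allele were analysed here, and the number of mice behind each library is not stated in the sources used here. A library of unstimulated cells kept for 24 h was also not among them. The effect of the antibodies therefore cannot be told apart from that of 24 h in culture.

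The unit of measurement was the unique molecular identifier (UMI), 1 per captured RNA molecule, summed over cells and given as counts per 1000000 UMIs of the library (CPM). A cell was kept if it had over 200 genes and a mitochondrial share of UMIs below 15%, which gave 8031 cells of the resting library, 9903 of the stimulated WT and 13920 of the IFT20-KO library, with medians of 4627, 12167 and 5014.5 UMIs. The targeted gene, Ift20, stood at 64.4, 76.0 and 6.60 CPM in the same order. The 6 CD4 T cell markers (Cd3d, Cd3e, Cd3g, Cd4, Trac and Lck) summed to 3265 to 4275 CPM, while the 4 B cell markers summed to 0.846 to 3.31 CPM with 1 to 2 of them at 0, and the erythroid and platelet markers were at or near 0. Of the myeloid list's 76.5 to 80.7 CPM, Cst3 alone made up 76.3 to 80.3 CPM, and Cd8b1 stood at 9.04 to 28.6 CPM beside Cd8a at 0.120 to 0.291 CPM. Pairs of libraries shared 125 to 207 cell barcodes. No kept barcode had 3 or more UMIs of the B cell markers and none of Cd3d, Cd3e and Cd3g. The background of the members from free RNA was not measured. With 1 library per condition no difference has a replicate and none was tested, and every 95% interval below covers counting error only.

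When the T cell receptor and CD28 are engaged, Ras activates the Raf, MEK and ERK kinase cascade, and the related JNK and p38 MAP kinases are activated beside it. ERK activity induces transcription of its own inhibitors, and these act at different levels. Sprouty and SPRED proteins interfere upstream, between receptor, Ras and Raf, with SPRED proteins bringing the Ras GTPase-activating protein neurofibromin to the membrane, whereas the DUSP proteins, also called MAP kinase phosphatases, remove the activating phosphates from the MAP kinases themselves. In T cells these genes are known as feedback regulators that set the length and strength of the response.

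In the GENCODE M21 annotation of GRCm38 (the mm10 assembly) the members lie on 9 chromosomes. The DUSP genes are Dusp1 at chr17:26505590-26562128 (minus strand), Dusp2 at chr2:127336159-127338376, Dusp4 at chr8:34807297-34819894, Dusp5 at chr19:53529109-53542431, Dusp6 at chr10:99263231-99267489 and Dusp10 at chr1:184013302-184075636 (each on the plus strand). The upstream inhibitors are Spry1 at chr3:37639947-37644598 (plus strand), Spry2 at chr14:105891947-105896819 (minus strand), Spred1 at chr2:117121374-117182279 and Spred2 at chr11:19924375-20024026 (both on the plus strand). Among genes that are also in the count tables, Dusp1 overlaps Ergic1 and Gm8225, and Dusp10 overlaps 1700056E22Rik, in each case on the opposite strand. Whether the counting used strand is not given in the sources used here, so the values of these 2 members could hold reads of their neighbours.

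The promoters of 9 of the 10 members were in a RefSeq table (GRCm38.p6) of 300 bases per gene, from 250 before to 50 after the start. This is the RefSeq start, which can differ from the GENCODE bounds given above. The windows of Dusp1 and Dusp10 lie inside those bounds. The 4 promoters printed here belong to the pair with the highest stimulation ratios among the members above 50 CPM in stimulated WT cells (Spry1 and Dusp6) and to the pair that held a cyclic AMP response element or a CArG box (Dusp1 and Dusp5). They run 5′ to 3′ on the strand of the gene, and capitals mark those motifs.
Spry1, chr3:37639697-37639996, plus strand: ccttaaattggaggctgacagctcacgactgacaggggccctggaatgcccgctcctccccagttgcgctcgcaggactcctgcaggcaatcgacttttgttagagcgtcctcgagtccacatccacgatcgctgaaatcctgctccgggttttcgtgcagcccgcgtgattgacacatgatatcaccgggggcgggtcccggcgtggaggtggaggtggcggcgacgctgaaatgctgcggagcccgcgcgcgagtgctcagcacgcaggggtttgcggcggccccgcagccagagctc
Dusp6, chr10:99262981-99263280, plus strand: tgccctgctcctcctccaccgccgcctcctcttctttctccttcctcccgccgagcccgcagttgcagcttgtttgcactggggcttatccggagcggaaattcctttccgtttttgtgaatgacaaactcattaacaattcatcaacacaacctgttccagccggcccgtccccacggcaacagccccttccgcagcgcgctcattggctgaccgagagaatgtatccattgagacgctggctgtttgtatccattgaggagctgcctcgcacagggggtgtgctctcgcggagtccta
Dusp1, chr17:26508423-26508722, minus strand: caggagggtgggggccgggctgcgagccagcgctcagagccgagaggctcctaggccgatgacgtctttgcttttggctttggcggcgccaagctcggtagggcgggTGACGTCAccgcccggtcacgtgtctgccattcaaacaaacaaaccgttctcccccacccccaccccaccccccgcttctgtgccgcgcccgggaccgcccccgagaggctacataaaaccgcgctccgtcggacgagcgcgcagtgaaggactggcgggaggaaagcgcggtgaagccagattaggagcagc
Dusp5, chr19:53528895-53529194, plus strand: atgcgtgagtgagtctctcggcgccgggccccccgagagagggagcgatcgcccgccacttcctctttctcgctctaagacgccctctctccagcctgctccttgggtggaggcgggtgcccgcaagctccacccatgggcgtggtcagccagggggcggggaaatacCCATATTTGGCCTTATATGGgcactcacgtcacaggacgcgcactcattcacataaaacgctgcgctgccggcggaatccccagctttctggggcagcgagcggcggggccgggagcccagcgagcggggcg
The motifs searched on both strands were the cyclic AMP response element (TGACGTCA), the AP-1 motif (TGANTCA), an ETS core (CCGGAA), the SP1 motif (GGGCGG), the TATA motif (TATAAA) and the CArG box, bound by serum response factor. Dusp5 held 2 CArG boxes end to end, from 82 to 73 and from 72 to 63 bases before the start, and no other member held one, against 1.63% of all 32851 promoters in the table. Dusp1 held the cyclic AMP response element from 143 to 136 bases before the start, a motif found in 1.79% of all promoters. Neither Spry1 nor Dusp6 held any of these or a match to the AP-1 motif or to CCGGAA in this window. Spry2 held the single CCGGAA match, against 14.9% of all promoters. An SP1 match was in 7 of the 9 members and in 35.7% of all promoters, and GC content was 57.0% to 72.3% in the members and 52.7% at the median of all promoters. A match describes these letters only and does not show that a factor binds there.

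In resting cells the family was dominated by nuclear DUSP genes and by Dusp10, and the Sprouty genes were scarcely seen. Each UMI stands for 1 end of a transcript, so CPM was not divided by gene length. The 10 members together held 306 CPM in the unstimulated WT library, of which the DUSP genes had 286, the Spred genes 19.1 and the Sprouty genes 1.45 CPM. Dusp2 took 60.1% of the family's UMIs, followed by Dusp10 with 14.3% and Dusp5 with 10.3%. Below them the order was Dusp1, Spred2, Dusp6, Spry1, Spred1, Dusp4 and Spry2, in which the counting intervals of Dusp1 and Spred2, and of Spry1 and Spred1, overlapped. After stimulation the sum was 703 CPM in WT and 607 CPM in IFT20-KO cells, and Spry1 and Dusp6 followed Dusp2 in that order in both libraries.

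**Figure D1:**
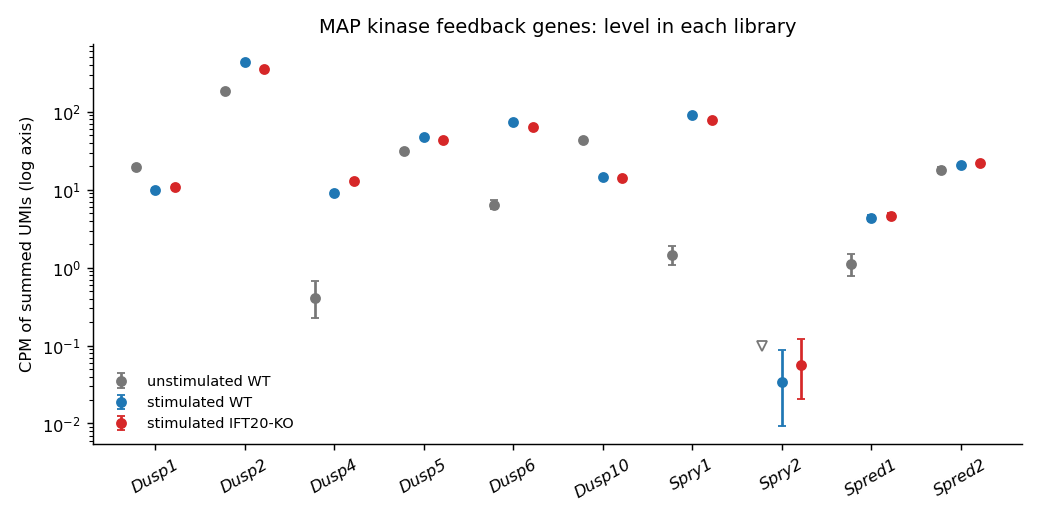
Level of each of the 10 members in CPM on a log axis, with 1 point per library (grey unstimulated WT, blue stimulated WT, red stimulated IFT20-KO) and exact Poisson 95% bars for counting error. The open triangle marks the upper limit of Spry2, which had 0 UMIs in the unstimulated library. Spry1, Dusp6 and Dusp4 lie far apart between the grey and the coloured points, while blue and red points lie close together for every gene.

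The first comparison set WT cells after 24 h of stimulation through CD3 and CD28 against unstimulated WT cells at 0 h. Its ratios cover the antibodies and the time in culture together. Of the 9 members with at least 10 UMIs over both libraries, 5 were more than 2-fold higher after stimulation (Dusp2, Dusp4, Dusp6, Spry1 and Spred1), 1 was more than 2-fold lower (Dusp10) and 3 lay between (Dusp1, Dusp5 and Spred2). Of all 13297 genes with that many UMIs, 19.3% were more than 2-fold higher and 23.0% more than 2-fold lower. The median log2 ratio of the 9 members was 1.23, against -0.089 for all genes. Spry2 could not be judged, with 0 UMIs in the unstimulated and 4 in the stimulated WT library.

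Spry1, which acts upstream on the path from receptor to Ras and Raf, had the largest ratio of the family. It was at 1.45 CPM in resting WT, 91.1 CPM in stimulated WT and 77.8 CPM in stimulated IFT20-KO cells. The stimulation log2 ratio was 5.97 (95% interval 5.58 to 6.38), higher than for 99.6% of all genes. The 54 UMIs of the resting library came from 38 of 8031 cells, or 1.42 UMIs per cell with a UMI, the second highest such mean among the members at rest, after Dusp2. At full depth 48.3% of stimulated WT cells had a UMI of Spry1, with 2.22 UMIs in each such cell.

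Dusp6, the cytoplasmic phosphatase specific for ERK, stood at 6.44 CPM in resting WT, 74.6 CPM in stimulated WT and 64.1 CPM in stimulated IFT20-KO cells. Its stimulation log2 ratio was 3.54 (3.35 to 3.73). Dusp4, a nuclear phosphatase of ERK and JNK, was almost unseen at rest and low throughout, at 0.404, 9.20 and 13.2 CPM. Its stimulation log2 ratio was 4.51 (3.78 to 5.35), and it rests on 15 UMIs in the unstimulated library. Dusp4 thus had the second largest ratio of the family while 7 members stood above it in level in stimulated WT cells.

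Dusp2, a nuclear phosphatase known from activated lymphocytes and also called PAC-1, was the most abundant member in every library. It stood at 184 CPM in resting WT, 431 CPM in stimulated WT and 357 CPM in stimulated IFT20-KO cells, and 431 CPM was above 99.0% of all genes in the table. The stimulation log2 ratio was 1.23 (1.19 to 1.27). Its ratio was far below those of Spry1, Dusp4 and Dusp6, and its level at rest far above theirs. Dusp5, the nuclear ERK-specific phosphatase, stood at 31.6, 47.4 and 43.6 CPM with a stimulation log2 ratio of 0.58 (0.49 to 0.68).

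The DUSP genes with a lower CPM after stimulation were Dusp10 and Dusp1. Dusp10, which acts mainly on JNK and p38, stood at 43.8 CPM in resting WT, 14.5 CPM in stimulated WT and 14.0 CPM in stimulated IFT20-KO cells, a stimulation log2 ratio of -1.59 (-1.69 to -1.49). Dusp1, an immediate early nuclear phosphatase of p38, JNK and ERK, stood at 19.4, 10.0 and 10.7 CPM. Its log2 ratio of -0.95 (-1.09 to -0.82) turned to 0.40 when UMIs per cell were compared without scaling for depth, on which scale the median of all genes was 1.26, and it was -0.25 (-0.66 to 0.13) in cells of 3000 to 8000 UMIs. Counted per cell, Dusp1 had 0.0897 UMIs at rest and 0.118 after stimulation, and Dusp10 had 0.202 and 0.172.

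The 2 Spred genes differed in the size of their ratio. Spred1 stood at 1.10 CPM in resting WT, 4.39 CPM in stimulated WT and 4.68 CPM in stimulated IFT20-KO cells, with a stimulation log2 ratio of 1.99 (1.53 to 2.49). Spred2 stood at 18.0, 20.7 and 21.8 CPM with a stimulation log2 ratio of 0.21 (0.082 to 0.33). Spred2 remained the more abundant of the pair in every library. Spry2 had 0, 4 and 6 UMIs, and the count of 0 allows up to 0.0993 CPM by the exact Poisson limit, so Spry1 was the only Sprouty member seen above a handful of UMIs.

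**Figure D2:**
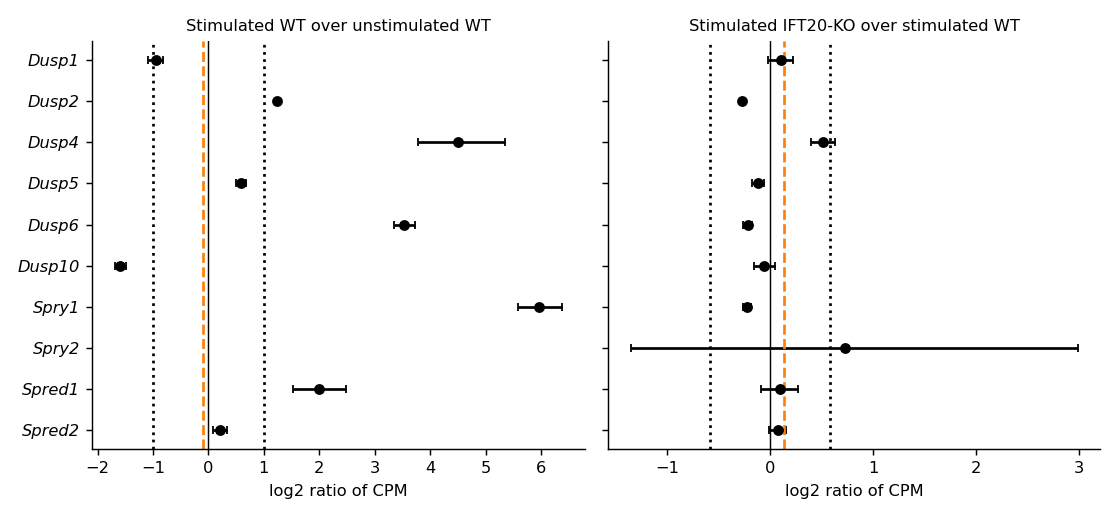
Log2 ratio of CPM for each member, on the left stimulated over unstimulated WT and on the right stimulated IFT20-KO over stimulated WT, with exact 95% bars for counting error. Dotted lines mark 2-fold (left) and 1.5-fold (right), the dashed orange line marks the median of all genes at -0.089 and 0.14, and Spry2 has no ratio on the left. The left panel spans -1.59 to 5.97, while on the right every member but Spry2 lies between -0.27 and 0.52.

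Because stimulated cells held more UMIs, the share of cells with a UMI was also taken after thinning each cell to 1400 UMIs, which left 7230, 9482 and 13920 cells. At that depth 32.8% of resting WT, 55.2% of stimulated WT and 52.9% of stimulated IFT20-KO cells had a UMI of at least 1 member, and 4.02%, 15.9% and 14.1% had UMIs of 2 or more members. Spry1 was detected in 0.152%, 10.9% and 9.77% of thinned cells and Dusp6 in 0.871%, 9.12% and 8.41%. Both stimulated libraries therefore lay well apart from the resting one for these genes. Dusp10 went the other way, from 6.25% of thinned cells at rest to 2.09% and 2.28%, and unthinned it was found in 1421 of 8031 cells at rest, 1490 of 9903 stimulated WT and 1350 of 13920 IFT20-KO cells. For Dusp1 the unthinned share was higher in stimulated WT (10.2%) than at rest (7.96%), whereas the thinned share was lower (1.47% against 2.46%).

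**Figure D3:**
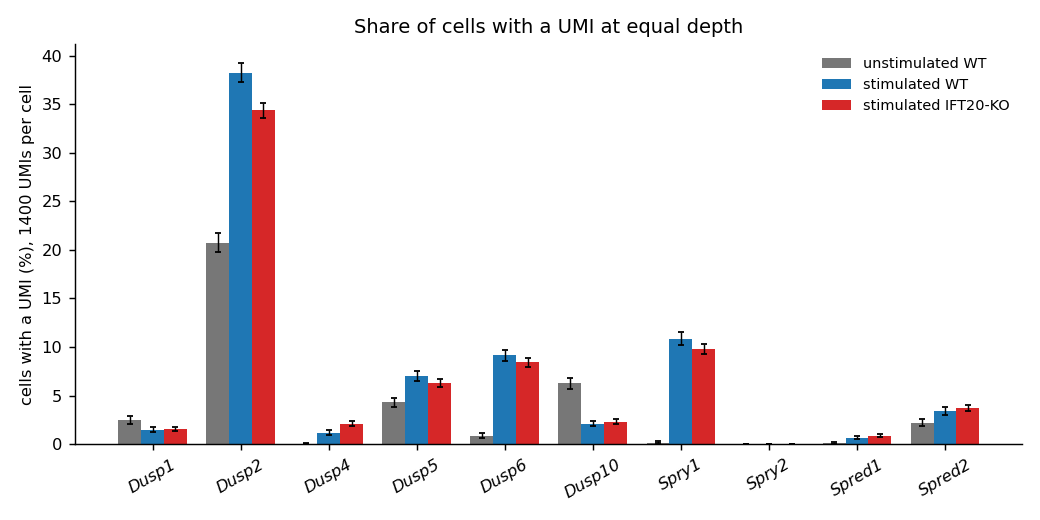
Share of cells with at least 1 UMI of each member after thinning every cell to 1400 UMIs, with 1 bar per library and exact Clopper-Pearson 95% bars. Dusp2 was found in 20.8%, 38.3% and 34.4% of cells and no other member passed 10.9% in any library.

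In both stimulated libraries the spread of UMIs over cells, taken as the Fano factor, was largest for Dusp2, the member with the highest mean. In thinned stimulated WT cells its Fano factor (variance over mean, which is 1 for counts that differ by sampling only) was 1.40, 12.3% of cells had 2 or more UMIs, and the highest cell had 9. The same gene had a Fano factor of 1.19 at rest and 1.17 in IFT20-KO cells. Its mean was 0.563 UMIs per thinned cell in stimulated WT, 0.252 at rest and 0.453 in IFT20-KO cells. Dusp5 followed with 1.13 in stimulated WT and 1.07 in IFT20-KO cells, then Spry1 with 1.07 and 1.03 and Dusp6 with 1.06 and 1.02. Each of these 4 members thus had a higher value in the stimulated WT than in the IFT20-KO library, and also a higher mean. The Fano factor can rise with the mean, and the part of the mean in these values was not tested. Spry1 at rest had a Fano factor of 1.31 on 13 UMIs.

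The second comparison asked how cells of the IFT20-KO library differed from WT cells after the same stimulation, and it shares the stimulated WT library with the first. The feedback genes were at similar levels in both genotypes. Of 10 members with at least 10 UMIs, only Spry2 was more than 1.5-fold higher in IFT20-KO cells, on 4 and 6 UMIs with an interval from -1.35 to 2.99, and 0 were more than 1.5-fold lower. Of all 13504 genes tested, 13.4% were more than 1.5-fold higher and 3.27% more than 1.5-fold lower. The median log2 ratio of the members was 0.0080, against 0.14 for all genes, and 8 of the 10 lay below the median of all genes.

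Within that narrow range, Dusp2 had a log2 ratio of -0.27 (-0.29 to -0.25), Spry1 of -0.23 (-0.27 to -0.19), Dusp6 of -0.22 (-0.27 to -0.17) and Dusp5 of -0.12 (-0.18 to -0.064). Measured from the median of all genes these were -0.41, -0.36, -0.36 and -0.26. The abundant feedback genes were thus slightly lower in IFT20-KO cells, except that Spry1, Dusp6 and Dusp5 had positive log2 ratios of 0.11, 0.29 and 0.058 in the few cells of 3000 to 8000 UMIs. Dusp4 was the member with a ratio above 0 whose interval excluded 0, at 0.52 (0.40 to 0.63) (0.38 above the median of all genes), but at -0.11 by UMIs per cell without scaling. The ratio of Dusp4 was past 1.5-fold, at 0.82, after thinning, at 0.67 with per-cell fractions and at 1.73 (1.03 to 2.53) in the few cells of 3000 to 8000 UMIs, where Spred1 stood at 1.09 (0.19 to 2.11). For Dusp1, Dusp10, Spred1 and Spred2 the intervals included 0 and their log2 ratios ran from -0.058 to 0.10.

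Cell depth differed between the genotypes, and several members moved with it. The cells fell into a shallow and a deep group, with 2387 of 9903 stimulated WT and 6958 of 13920 IFT20-KO cells under 5000 UMIs, a limit chosen after the depths had been seen. In both stimulated libraries the Spred genes were higher in CPM in the shallow cells: Spred2 stood at 46.2 CPM in shallow and 19.6 CPM in deep WT cells and at 35.2 and 19.1 CPM in IFT20-KO cells, and Spred1 at 10.0 and 4.15 CPM and at 9.32 and 3.75 CPM. Dusp2 and Spry1 were lower there, Dusp2 with 285 and 438 CPM in WT and 284 and 372 CPM in IFT20-KO cells, and Spry1 with 65.8 and 92.1 CPM and with 68.2 and 79.7 CPM. Dusp4, Dusp5 and Dusp10 were higher in the shallow cells of both libraries, and the intervals of Dusp6 included a ratio of 1 in both.

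**Figure D4:**
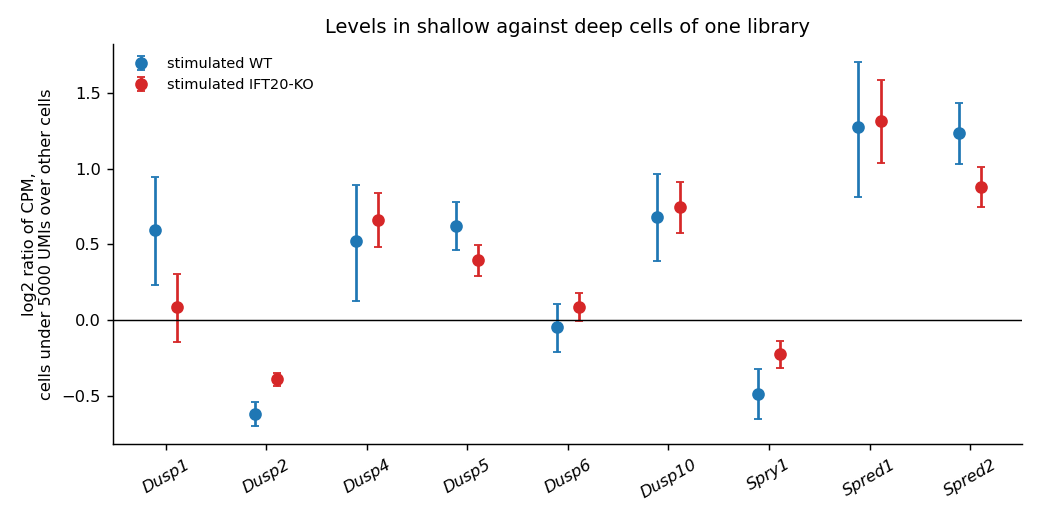
Log2 ratio of CPM between cells under 5000 UMIs and cells with 5000 or more, within the stimulated WT (blue) and the stimulated IFT20-KO library (red), with exact 95% bars for counting error. Spred1 reaches 1.27 and 1.31, Spred2 1.23 and 0.88, while Dusp2 lies at -0.62 and -0.39 and Spry1 at -0.48 and -0.23.

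The genotypes were also compared among deep and among shallow cells alone, whose median depths still differed, at 14006.5 UMIs in WT and 11908 in IFT20-KO deep cells and 1853 and 2443 in shallow cells. In deep cells the IFT20-KO log2 ratio was -0.24 for Dusp2 (-0.26 to -0.22), -0.21 for Spry1 (-0.25 to -0.17), -0.24 for Dusp6 (-0.29 to -0.19) and 0.41 for Dusp4 (0.28 to 0.53). In shallow cells it was -0.0049 for Dusp2 (-0.091 to 0.082), 0.050 for Spry1 (-0.13 to 0.23) and -0.10 for Dusp6 (-0.28 to 0.074), so the lower levels of these 3 genes were seen in the deep cells. Dusp4 was higher in IFT20-KO cells at both depths, with 0.55 in the shallow cells (0.16 to 0.97). Dusp5 was lower at both, with -0.39 (-0.57 to -0.21) in shallow and -0.16 (-0.22 to -0.10) in deep cells, and Spred2 was at -0.39 (-0.62 to -0.16) and -0.039 (-0.13 to 0.053). The part that cell depth has in the pooled ratios was not tested beyond these values.

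Cells were then divided by whether a thinned cell held a UMI of a gene that marks recent receptor signalling. Nr4a1, an immediate early gene that reports T cell receptor signal, was detected in 13.6% of thinned stimulated WT and 11.5% of IFT20-KO cells. Dusp2 stood at 715 CPM in WT cells with Nr4a1 and 353 CPM in those without, a log2 ratio of 1.02 (0.93 to 1.11), and at 440 and 308 CPM in IFT20-KO cells, a ratio of 0.51 (0.41 to 0.61). Spry1 had ratios of 0.81 (0.60 to 1.01) and 0.48 (0.27 to 0.69), Dusp5 of 0.71 (0.44 to 0.97) and 0.65 (0.39 to 0.90), and Dusp6 of 0.48 (0.22 to 0.72) and 0.49 (0.26 to 0.71). For Dusp1, Dusp4, Dusp10, Spred1 and Spred2 the intervals included 0 in both libraries. Even at rest the 135 cells with Nr4a1 had 508 CPM of Dusp2 against 174 CPM in the others, and 3 of the 13 thinned UMIs of Spry1.

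Cells were also divided by Egr2, another early gene induced through the receptor. Dusp6 had the largest ratio in stimulated WT cells, with 125 CPM in cells with Egr2 and 66.0 CPM in cells without (log2 ratio 0.92, 0.63 to 1.20), and 0.49 (0.16 to 0.81) in IFT20-KO cells. Spry1 had 0.71 (0.44 to 0.98) and 0.50 (0.20 to 0.79), and Dusp2 had 0.69 (0.56 to 0.81) and 0.51 (0.36 to 0.65). The intervals of Dusp6, Spry1 and Dusp2 overlapped within each library, so their order is not settled. Dusp5, which was higher in cells with Nr4a1, had ratios of 0.044 (-0.38 to 0.45) and 0.11 (-0.33 to 0.52) here. Before thinning, cells with Egr2 were deeper, with medians of 13079 against 12459 UMIs in WT and 7705 against 4825 in IFT20-KO cells. The part of depth in the ratios for Egr2 was not tested. Cells of these divisions come from single libraries and are not replicates, so the gap between WT and IFT20-KO ratios was not tested.

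**Figure D5:**
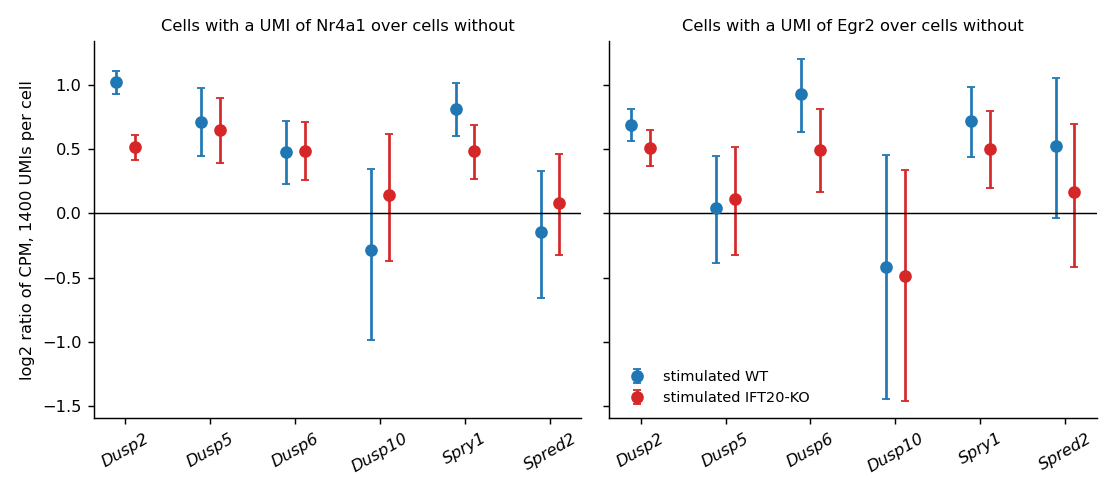
Log2 ratio of CPM between thinned cells with and without a UMI of Nr4a1 (left) or Egr2 (right), in stimulated WT (blue) and stimulated IFT20-KO cells (red), for 6 members, with exact 95% bars for counting error. Dusp2, Dusp6 and Spry1 lie above 0 in both panels, and Dusp5 lies above 0 on the left and near 0 on the right.

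Cells with the cytokine genes Il2 or Ccl4 had more Dusp2 in stimulated WT, with log2 ratios of 0.46 (0.32 to 0.60) and 0.58 (0.45 to 0.70). In IFT20-KO cells these were 0.20 (0.055 to 0.34) and 0.28 (0.17 to 0.39). Dusp2 was not alone in this. WT cells with Il2 also had more Dusp5 (0.67, 0.30 to 1.02) and Spry1 (0.43, 0.12 to 0.73). WT cells with Ccl4 had more Spry1 (0.48, 0.19 to 0.76) and Dusp6 (0.45, 0.13 to 0.75). For the other members the WT intervals included 0. In IFT20-KO cells, besides Dusp2, only Spred1 with Il2 (1.36, 0.52 to 2.10) and Dusp5 with Ccl4 (0.32, 0.031 to 0.60) had intervals without 0. Before thinning, WT cells with Il2 or Ccl4 were deeper, with medians of 14758.5 against 12392 and 13308 against 12446 UMIs. In the IFT20-KO library such cells were shallower, with 3248.5 against 5506 and 3599 against 5643 UMIs. The part of depth in the ratios for Il2 and Ccl4 was not tested. Spry1 had log2 ratios of -1.07 (-2.29 to -0.089) in WT and -0.57 (-1.12 to -0.075) in IFT20-KO cells with the proliferation gene Mki67, on 8 and 33 thinned UMIs. The cells with Mki67 were shallower before thinning, with medians of 3289 against 12541.5 UMIs in WT and 2991.5 against 5919.5 in IFT20-KO cells, and the part of depth in these ratios was not tested.

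Most but not all pairs of members were found in the same thinned cell slightly more often than their single shares give. Over the 15 pairs with at least 20 expected cells in stimulated WT, the median ratio of observed to expected cells was 1.11, and over 19 pairs in IFT20-KO cells it was 1.14. The ratio was above 1 for 10 pairs in WT and 16 in IFT20-KO cells, and the lowest values were 0.88 and 0.76. Dusp2 with Spred1 had 1.35 in WT and 0.76 in IFT20-KO cells. Pairs of other genes were not measured. The highest in WT was Dusp6 with Spry1, at 150 cells against 94.1 expected (1.59), and the same pair had 133 against 114 (1.16) in IFT20-KO cells. Over the 9482 thinned stimulated WT cells the gene most like Dusp2 was Nr4a1 (Pearson r = 0.21), followed by Egr1 (0.18) and Actg1 (0.16), and in IFT20-KO cells these had r of 0.10, 0.084 and 0.10. For Spry1 they were Nr4a1, Srgn and Actg1, for Dusp6 Pdcd1, Dusp2 and Tespa1, and for Dusp5 Lta, Il2ra and Cd2, all with r of 0.090 or less in counts too sparse to read a relation from.

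The other genes of the pathway were taken from a list of 73. Of the 66 with enough UMIs in the stimulation comparison, 19 were more than 2-fold higher and 10 more than 2-fold lower, with a median log2 ratio of 0.0092, beside the 19.3% and 23.0% of all genes given above. By role, of 16 genes listed as ERK-induced transcripts 9 were higher and 1 lower (median 1.61). The 6 between were Fos (log2 ratio 0.28), Ier2 (-0.13), Srf, Elk1, Elk3 and Elk4. Of 19 genes of the Ras-ERK cascade 1 was higher and 4 lower (median -0.34), the latter a share near that of all genes. Among the outputs Fosl1, a subunit of AP-1, was at 0.404 and 28.5 CPM (log2 ratio 6.14), Egr2 at 7.57 and 56.7 CPM (2.91), Egr3 at 3.99 and 21.7 CPM (2.45), Phlda1 at 11.3 and 58.6 CPM (2.37), Myc at 75.6 and 264 CPM (1.81) and Egr1 at 49.0 and 130 CPM (1.41). The lower genes of the cascade included those for the exchange factors that load Ras and Rap1 with GTP, Rasgrp1 at 154 and 34.1 CPM (-2.17) and Rasgrp2 at 289 and 16.1 CPM (-4.17), and the ribosomal S6 kinase gene Rps6ka3 (-1.34), while Hras was higher (1.25).

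Inhibitors outside the family went in both directions. Of 9 genes tested in the list of Ras GTPase-activating proteins and other inhibitors, 4 were more than 2-fold higher and 2 more than 2-fold lower (median 0.55). The shares of all genes were 19.3% and 23.0%. Those higher included genes for GTPase-activating proteins, at under 20 CPM. The GTPase-activating protein genes Rasa3, at 147 and 15.7 CPM (log2 ratio -3.23), and Rasal3, at 203 and 79.5 CPM (-1.35), were lower after stimulation, and Pebp1, which encodes the Raf kinase inhibitor protein, was higher at 170 and 540 CPM (1.67). Of 11 genes tested in the JNK and p38 branch, 1 was more than 2-fold higher and 2 more than 2-fold lower (median -0.11). The p38 kinase kinase gene Map2k3 was higher (1.71) and Map3k1 lower (-1.12). Map2k6, also a p38 kinase kinase gene, was lower at 15.5 and 2.41 CPM (-2.69). Of 11 other dual specificity phosphatases tested, 4 were more than 2-fold higher and 1 more than 2-fold lower, and none of these reached 20 CPM. Between the genotypes 4 of 69 genes of the list were more than 1.5-fold higher in IFT20-KO cells, 0 were more than 1.5-fold lower and the median was 0.094, beside 13.4% and 3.27% of all genes past these limits and a median of 0.14. All 16 genes listed as ERK-induced transcripts lay between these limits (median -0.13). The 4 genes past 1.5-fold all lay below 20 CPM. They included genes with only 4 and 6 UMIs and with 5 and 12 UMIs, whose intervals included 0. The others had intervals above 0. These were a gene with 149 and 214 UMIs (log2 ratio 0.66, 0.35 to 0.97) and Map2k6 with 282 and 388 UMIs (0.60, 0.37 to 0.82).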

How the data were processed

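Sorted mouse spleen CD4+ T cells were profiled in 3 single-cell libraries, 1 per condition. The authors aligned reads to mm10 and deposited raw counts, the UMIs of each gene in each barcode, made with Cell Ranger, with version 3.1.0 in the file headers. The methods name a 3′ kit and the labels a 5′ kit, so which transcript end was counted is unsettled. The lowest barcode held 500, 709 and 1493 UMIs, so cell calling set unequal minimums. Other steps were computed anew. Kept cells had more than 200 genes and under 15% mitochondrial UMIs, leaving 37133949, 116979076 and 106435143 UMIs. No doublets were removed. CPM have exact Poisson intervals, ratios exact conditional binomial intervals and shares Clopper-Pearson intervals, at 95%. Ratios needed 10 UMIs over both libraries. For shares of cells, divisions by a gene and correlations of log2(UMIs + 1), cells were thinned to 1400 UMIs with a fixed seed, and 801, 421 and 0 shallower cells were left out.

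Named were all members, Ift20, pathway genes of at least 20 CPM past 2-fold (stimulation) or 1.5-fold (IFT20-KO), genes dividing cells, markers, and the 3 genes most correlated with each member found in at least 5% of cells. The genes listed as ERK-induced that lay between the stimulation limits, and Map2k6, were named too. Of the genes used to divide cells, Foxp3, S100a4, Tbx21, Isg15 and Il7r are not described further, and 1 other is not reported here. The members and lists were chosen with earlier results of these data known. The ratio calculation was tested on simulated data. Gene positions came from GENCODE M21, with 30934 of 31053 identifiers matched, and promoters from RefSeq. Python 3.11.15, numpy 2.4.6, scipy 1.17.1, pandas 2.3.3 and matplotlib 3.10.9 were used. Alternatives were another scaling, no scaling, per-cell fractions, other cell filters, depth windows, thinning and no UMI minimum.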

Additional observations from a re-analysis of the deposited data

How the results depend on the processing

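With 1 library per condition, no replicate could be left out. No paired analysis was possible because each condition has a single library and the result comes from no test. For stimulation, 5 members were more than 2-fold higher under each alternative for which members were counted, except UMIs per cell. There the count was 7, on a scale where the median of all genes was itself 1.26, and the share of all genes was not computed. Cells under 5000 UMIs alone were not among these alternatives, and the set past 2-fold differed in them. Their log2 ratio was 0.57 (0.48 to 0.66) for Dusp2, 1.11 (0.91 to 1.30) for Dusp5 and 1.26 (1.01 to 1.51) for Spred2. The median log2 ratio of 1.23 became 1.40 with median-ratio scaling, 1.10 with per-cell fractions, 1.16 after thinning, 1.05 in cells of 3000 to 8000 UMIs, 1.30 in cells of 5000 UMIs or more (added after the data had been seen), 0.91 without a UMI minimum and with Spry2 set at its bound, and 2.58 in UMIs per cell, where the median of all genes also moved to 1.26. Members more than 2-fold lower were 2 with per-cell fractions, where Dusp1 joined Dusp10, and 0 in UMIs per cell, where Dusp1 turned to 0.40.

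For IFT20-KO against WT, the members' median of 0.0080 was -0.16 with median-ratio scaling, -0.62 in UMIs per cell, -0.0038 over all barcodes, -0.036 with over 1000 genes and under 10% mitochondrial UMIs, 0.11 in cells of 3000 to 8000 UMIs and -0.16 in cells of 5000 UMIs or more. Its sign is therefore not settled. The median of all genes under these alternatives, in the same order, was -0.034, -0.49, 0.13, 0.16, 0.25 and 0.040. The members' median lay below that of all genes in each of them. Members more than 1.5-fold higher were 0 with median-ratio scaling, in UMIs per cell, under the stricter filter and in cells of 5000 UMIs or more, and 2 with per-cell fractions and in cells of 3000 to 8000 UMIs. In UMIs per cell 5 members were more than 1.5-fold lower and Dusp4 turned to -0.11. On that scale the median of all genes was -0.49, and the share of all genes past the limit was not computed. In cells of 3000 to 8000 UMIs, of which stimulated WT had 698, Dusp5 turned to 0.058, Dusp6 to 0.29 and Spry1 to 0.11. The causes of these shifts were not tested. Depth limits Spry2 in every library and the resting levels of Dusp4, Spred1 and Spry1.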
